A study of Homo sapiens with 12 samples.

Results

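The genes described here are 54 genes of DNA replication, the proteins that load, open and copy the DNA in S phase. They were chosen by name, with earlier results of these data known. All array probes annotated to a listed symbol were taken and the probes of a gene were averaged, with no filter on measured values. All 54 had a probe (83 probes, 32 genes with 1 probe and 22 with more), of 20045 genes with a named probe. By role they were split into 9 groups: licensing, the MCM family, helicase activation, polymerases and primase, the clamp and its loaders, RPA, lagging strand processing, fork protection and chromatin assembly.

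Before S phase the origin recognition complex, with CDC6 and CDT1, loads the MCM helicase onto origins of replication. In S phase the CDC7 kinase, CDC45, GINS and MCM10 turn the loaded MCM ring into a moving helicase, after which primase, the polymerases and the PCNA clamp copy both strands. Transcription of many of these genes is known to rise as cells leave G1, through the E2F factors.

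HT144, an established human melanoma cell line, was transfected with an siRNA against CITED1, #1 siCITED1 or #3 siCITED1, or with the negative control siRNA siNEG, and RNA was taken after 48 h. CITED1 is a transcriptional cofactor without a DNA-binding domain of its own, and the study asked what its silencing does to melanoma cells. Each group had 4 wells with 1 Illumina HT-12 array each, 12 arrays in all, and all cells, control wells included, were transfected with Lipofectamine2000. The wells were of 1 day and 1 passage of 1 cell line, so p-values measure the spread between such wells, and with so few arrays the precision is limited.

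The values are log2 intensities that were centred on each gene and each array: 0 is a gene's mean over the 12 arrays, values show differences between arrays only, and neither the level of a gene nor whether its probe was above background can be read from them. Differences were tested with limma on the 20045 genes together, and a gene was called lower or higher at a Benjamini-Hochberg adjusted p under 0.05. In RNA from a whole culture, fewer cells in S phase and less RNA per cell cannot be told apart.

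Because many genes of this group are known to hold E2F sites, the promoters of 6 genes are shown first. They are the 5 genes of smallest p for both siRNAs against siNEG among those with an E2F match, and the gene of smallest p without one. Each runs 5′ to 3′ on the strand of its gene, with 200 bases before the transcription start and the first 10 bases from it (RefSeq, GRCh38.p14). Capitals mark matches to the E2F motif (TTTGGCGC, TTTCCCGC, TTTGCCGC or TTTCGCGC) and to CCAAT, on either strand.
GINS3 (chr16:58392271-58392480, + strand): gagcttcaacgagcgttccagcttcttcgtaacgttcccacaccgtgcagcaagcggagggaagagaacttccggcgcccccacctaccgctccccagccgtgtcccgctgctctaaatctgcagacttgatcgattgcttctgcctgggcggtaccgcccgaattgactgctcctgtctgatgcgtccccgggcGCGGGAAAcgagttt
POLE2 (chr14:49688205-49688414, - strand): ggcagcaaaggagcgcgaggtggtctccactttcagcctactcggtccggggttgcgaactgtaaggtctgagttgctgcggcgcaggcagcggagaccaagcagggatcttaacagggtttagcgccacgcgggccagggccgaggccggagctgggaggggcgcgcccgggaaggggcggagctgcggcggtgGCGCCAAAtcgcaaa
UHRF1 (chr19:4909301-4909510, + strand): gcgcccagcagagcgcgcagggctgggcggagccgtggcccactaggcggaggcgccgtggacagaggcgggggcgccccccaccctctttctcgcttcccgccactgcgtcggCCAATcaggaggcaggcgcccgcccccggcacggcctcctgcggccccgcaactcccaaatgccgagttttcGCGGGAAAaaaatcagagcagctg
MCM7 (chr7:100101388-100101597, - strand): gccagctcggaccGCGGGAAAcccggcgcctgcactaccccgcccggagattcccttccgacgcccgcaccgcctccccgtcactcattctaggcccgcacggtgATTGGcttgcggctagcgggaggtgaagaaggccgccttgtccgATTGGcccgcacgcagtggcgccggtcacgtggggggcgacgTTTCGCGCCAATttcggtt
MCM3 (chr6:52284733-52284942, - strand): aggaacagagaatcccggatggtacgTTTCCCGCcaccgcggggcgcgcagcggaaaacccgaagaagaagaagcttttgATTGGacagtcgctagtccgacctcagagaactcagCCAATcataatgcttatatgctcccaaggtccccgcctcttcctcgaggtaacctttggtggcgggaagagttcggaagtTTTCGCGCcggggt
RNASEH2A (chr19:12806384-12806593, + strand): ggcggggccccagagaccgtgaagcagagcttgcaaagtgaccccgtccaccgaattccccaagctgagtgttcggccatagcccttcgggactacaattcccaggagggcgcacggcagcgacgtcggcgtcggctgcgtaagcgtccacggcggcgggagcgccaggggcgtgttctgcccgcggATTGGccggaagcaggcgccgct

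In GINS3 and POLE2 the E2F match lay across the start itself, and in UHRF1 it began 14 bases before it. UHRF1 and MCM7 had 3 windows each, of which the first with an E2F match was printed. The positions given for these genes hold for that start only. MCM7 and MCM3 held 2 matches each, a far one beginning 187 and 174 bases before the start and a near one beginning 9 and 4 bases before it, and in MCM7 the near E2F match and a CCAAT match shared 1 base. A promoter window of 300 bases was at hand for 47 of the 54 genes, and RPA3, MCM5, POLD3, MCM4, DSCC1, GINS4 and RPA2 had none in the table used. A gene was counted as holding a motif where any of its windows matched. The E2F motif was in 23 of the 47 genes (48.9%), against 3.99% of 27305 genes with a window. CCAAT was in 29 (61.7%), against 39.7%, and the motif called CHR (TTTGAA or TTCGAA), known from genes of mitosis, was in 3 (6.38%), against 19.5%. Of the MCM family 5 of 5 genes with a window held the E2F motif. It was in 14 of the 31 genes with a window that were lower with #1 and in 9 of the other 16. A match is a run of letters and no evidence of a bound factor.

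CITED1, the target of both siRNAs, was measured in every array. CITED1 was at -0.14, -0.19, -0.13 and -0.25 in the #1 arrays, at -0.20, -0.33, -0.28 and -0.34 in the #3 arrays and at 0.44, 0.35, 0.54 and 0.53 in the siNEG arrays. No siCITED1 array reached a siNEG array. The difference from siNEG was -0.64 ± 0.055 log2 (SE, limma adjusted p = 7.34e-07) with #1 and -0.75 ± 0.055 (adjusted p = 7.02e-07) with #3. Between the siRNAs it was 0.11 ± 0.055 (adjusted p = 0.275), which did not pass, with a 95% interval of -0.0095 to 0.22. Array SDs over all probes lay between 0.11 and 0.134, no pair of arrays was identical, and siNEG replicate 1 stood apart on the third principal component (9.12% of the variance, 13.76 against -6.39 to 4.14 for the other 11 arrays). Of 6 melanocyte lineage genes with a probe, 5 were higher with #1 and 3 with #3, and their mean lay at 0.27 to 0.39 in #1 arrays, -0.12 to -0.014 in #3 arrays and -0.36 to -0.23 in siNEG arrays. Of 14 marker genes of fibroblasts, keratinocytes and leukocytes 1, a fibroblast gene, was higher with #3 and none passed with #1. What part these had in the results was not tested.

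With #1 siCITED1 most of the replication genes were lower than with siNEG. Of the 54 genes, 37 were lower (68.5%), against 5.02% of all 20045 genes, and 1 was higher, against 4.82%, while 16 did not pass. The median difference of the 54 was -0.31 log2, against 0.0031 over all genes. In 37 genes all 4 #1 arrays lay below all 4 siNEG arrays (6.61% of all genes did so). The median of the 54 values was -0.18, -0.17, -0.20 and -0.15 in the #1 arrays, 0.029, 0.051, 0.053 and 0.071 in the #3 arrays and 0.12, 0.16, 0.14 and 0.14 in the siNEG arrays. The 3 groups did not overlap in this median, and the #3 arrays lay nearer to siNEG.

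With #3 siCITED1 fewer genes passed: 9 were lower (16.7%), against 1.91% of all genes, and none was higher by limma, against 2.44%. At an unadjusted limma p under 0.05, 16 of the 54 were lower and 0 higher. Of all 20045 genes 1414 were lower and 1525 higher at that threshold. The 9 were CDC45, GINS3, POLE2, DSCC1, FEN1, RNASEH2A, TIMELESS, ASF1B and UHRF1, and all 9 were also lower with #1. The median of the 54 differences was -0.074 log2, against 0.0015 over all genes, and 13 genes had all 4 #3 arrays below all 4 siNEG arrays (4.04% of all genes). Both comparisons used the same 4 siNEG arrays, so that their values are not independent of each other.

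**Figure D1:**
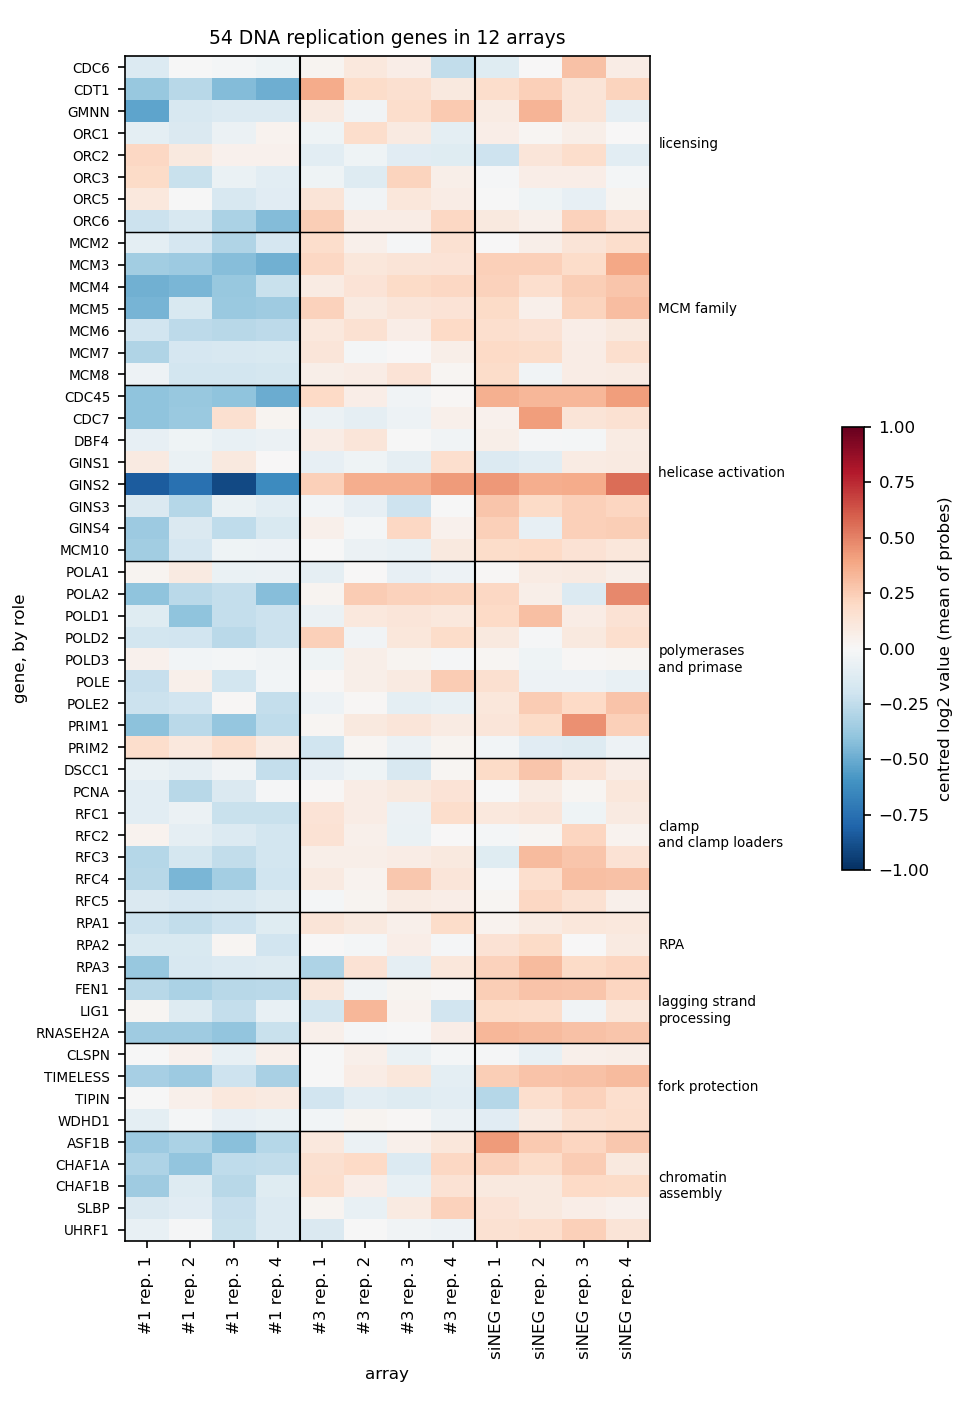
Centred log2 values of the 54 replication genes (rows, by role) in the 12 arrays (columns, 4 each of #1, #3 and siNEG). The #1 columns are mostly blue (low), with 45 to 48 of 54 genes below 0 in each array, against 15 to 21 in #3 arrays and 5 to 13 in siNEG arrays.

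The siRNAs were set against each other directly as well. Of the 54 genes 30 were lower in #1 than in #3 arrays (55.6%), against 6.28% of all genes, and 1 was higher, against 6.09%, while 23 did not pass. The median difference was -0.22 log2. All 30 were among the 37 that were lower with #1 against siNEG, but both counts rest on the same #1 arrays. Of the 9 genes that were lower both with #1 and with #3, CDC45, FEN1, RNASEH2A, TIMELESS and ASF1B were also lower in #1 than in #3, whereas GINS3, POLE2, DSCC1 and UHRF1 did not pass there. Their differences between the siRNAs had 95% intervals of -0.19 to 0.049 (GINS3), -0.23 to 0.022 (POLE2), -0.17 to 0.085 (DSCC1) and -0.16 to 0.063 (UHRF1).

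When the 8 siCITED1 arrays were taken as 1 group, 10 genes were lower (18.5%), against 0.868% of all genes, and none was higher by limma, against 1.05%. The 10 were the 9 genes above and RPA3. At an unadjusted limma p under 0.05, 28 of the 54 were lower and 0 higher. Of all 20045 genes 1140 were lower and 1269 higher at that threshold. The count of 10 fell whichever siNEG array was left out: it was 3, 3, 3 and 4 without siNEG replicate 1, 2, 3 and 4. Only GINS3 and POLE2 passed without each of the 12 arrays in turn. In this fit the difference between the siRNAs is part of the spread. When each siRNA had a mean of its own and the 2 differences were averaged, 27 genes were lower. How many of all genes that fit called is not given here, so the 27 cannot be weighed against the 0.868% above.

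**Figure D2:**
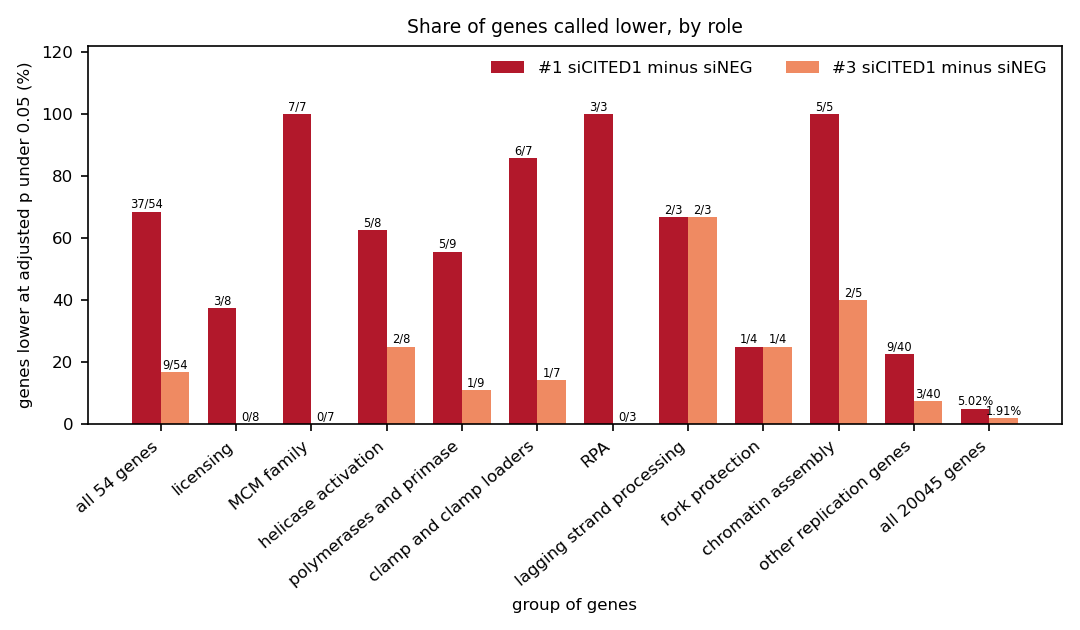
Share of genes called lower (%, limma adjusted p under 0.05) for #1 siCITED1 minus siNEG and #3 siCITED1 minus siNEG, in all 54 genes, each group by role, the 40 other replication genes and all 20045 genes. Numbers over the bars are genes lower of genes in the group, with 7 of 7 MCM genes lower with #1 and 0 of 7 with #3.

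Licensing genes were divided. Of 8 genes, CDT1, ORC6 and GMNN were lower with #1, none passed with #3, and the other 5 (ORC1, ORC2, ORC3, ORC5 and CDC6) differed by -0.11 to 0.10 log2 with #1 and passed in no comparison. ORC2 had the highest #1 minus #3 difference of the 54 genes, 0.20 ± 0.072 (adjusted p = 0.0981), with all #1 arrays above all #3 arrays, and it passed without siNEG replicate 1 (adjusted p = 0.044). CDT1 loads the MCM ring together with CDC6. For CDT1 the #1 arrays gave -0.38, -0.28, -0.43 and -0.49, the #3 arrays 0.37, 0.18, 0.16 and 0.099 and the siNEG arrays 0.18, 0.24, 0.13 and 0.22. Each #1 array lay below each of the other 8 arrays, while #3 and siNEG arrays overlapped. The difference was -0.59 ± 0.062 (adjusted p = 6.42e-06) with #1 and 0.0095 ± 0.062 (adjusted p = 0.976) with #3. For #1 minus #3 it was -0.60 ± 0.062 (adjusted p = 4.66e-06).

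ORC6 is the smallest subunit of the origin recognition complex. Values of ORC6 were -0.21, -0.16, -0.32 and -0.43 with #1, 0.25, 0.073, 0.078 and 0.21 with #3 and 0.10, 0.052, 0.23 and 0.14 with siNEG. The #1 arrays stood below the rest without overlap. It was -0.41 ± 0.064 (adjusted p = 0.000345) with #1, against 0.020 ± 0.064 (adjusted p = 0.947) with #3. Its 2 probes were at -0.57 and -0.25 with #1, and the second did not pass (limma adjusted p = 0.0584 over all probes). GMNN codes for geminin, which binds CDT1 and blocks a new round of loading. GMNN was at -0.52, -0.16, -0.13 and -0.13 in the #1 arrays, at 0.093, -0.035, 0.18 and 0.26 in the #3 arrays and at 0.082, 0.34, 0.13 and -0.092 in the siNEG arrays. Replicate 1 of #1 was far below the other #1 arrays, and siNEG replicate 4 lay near them. GMNN was -0.35 ± 0.096 (adjusted p = 0.0266) with #1, and without #1 replicate 1 the difference was -0.25 with an adjusted p of 0.085 (0.0871 without siNEG replicate 2, 0.0582 without siNEG replicate 3). CDC6, the loading ATPase, was -0.11 ± 0.084 (adjusted p = 0.53) with #1 and -0.074 ± 0.084 (adjusted p = 0.79) with #3, and ORC1, the largest subunit, -0.11 ± 0.060 (adjusted p = 0.356) and -0.0060 ± 0.060 (adjusted p = 0.984).

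The MCM family moved together with #1. Of 7 genes, MCM2 to MCM7, the subunits of the ring, and MCM8, a relative known from DNA repair, all were lower with #1 and all were lower in #1 than in #3, while none passed with #3 by limma (2, MCM3 and MCM7, at an unadjusted p under 0.05). MCM3 had the largest difference. For MCM3 the #1 arrays gave -0.35, -0.37, -0.43 and -0.48, the #3 arrays 0.21, 0.12, 0.13 and 0.13 and the siNEG arrays 0.24, 0.24, 0.19 and 0.38. The #1 arrays lay far below the rest, and #3 arrays overlapped siNEG arrays only at their upper end. It was -0.67 ± 0.053 (adjusted p = 3.15e-07) with #1, -0.11 ± 0.053 (adjusted p = 0.322) with #3 and -0.55 ± 0.053 (adjusted p = 1.95e-06) for #1 minus #3.

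MCM4, like MCM6 and MCM7, belongs to the core of the ring. Values of MCM4 were -0.48, -0.46, -0.38 and -0.23 with #1, 0.085, 0.14, 0.19 and 0.21 with #3 and 0.23, 0.17, 0.24 and 0.27 with siNEG. The #1 arrays were lower than all others, with replicate 4 the nearest to them. It was -0.62 ± 0.057 (adjusted p = 1.74e-06) with #1 and -0.074 ± 0.057 (adjusted p = 0.652) with #3. MCM6 was at -0.19, -0.26, -0.28 and -0.26 in the #1 arrays, at 0.10, 0.15, 0.065 and 0.20 in the #3 arrays and at 0.17, 0.15, 0.063 and 0.096 in the siNEG arrays. The #3 and siNEG arrays overlapped, and #1 lay below both. MCM6 was -0.36 ± 0.048 (adjusted p = 5.88e-05) with #1, 0.011 ± 0.048 (adjusted p = 0.961) with #3 and -0.38 ± 0.048 (adjusted p = 3.95e-05) for #1 minus #3.

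MCM7 was measured by 3 probes that did not move alike. For MCM7 the #1 arrays gave -0.30, -0.17, -0.16 and -0.15, the #3 arrays 0.12, -0.019, 0.0029 and 0.056 and the siNEG arrays 0.20, 0.19, 0.072 and 0.17. Replicate 1 of #1 was lower than the other #1 arrays, all of which lay below the #3 and siNEG arrays. The mean of the probes was -0.35 ± 0.052 (adjusted p = 0.000209) with #1 and -0.12 ± 0.052 (adjusted p = 0.304) with #3. Single probes were at -0.60, -0.45 and -0.0082 log2 with #1 and at -0.23, -0.070 and -0.052 with #3. MCM5 was -0.53 ± 0.068 (adjusted p = 4.98e-05) with #1 and -0.047 ± 0.068 (adjusted p = 0.847) with #3, and MCM2 -0.27 ± 0.059 (adjusted p = 0.00556) and -0.000015 ± 0.059 (adjusted p = 1). MCM8 was -0.22 ± 0.055 (adjusted p = 0.0131) with #1 and -0.0025 ± 0.055 (adjusted p = 0.993) with #3. Its 3 probes were at -0.027, -0.25 and -0.39 with #1 (limma adjusted p = 0.94, 0.0399 and 0.001 over all probes).

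Of 8 genes of helicase activation 5 were lower with #1 (GINS2, CDC45, GINS4, GINS3 and MCM10) and 2 with #3 (GINS3 and CDC45). The 4 GINS subunits form 1 complex, and of these GINS1 did not pass with either siRNA, GINS2 and GINS4 passed with #1 alone and GINS3 passed with both. GINS2 had the largest difference of all 54 genes. Values of GINS2 were -0.83, -0.75, -0.91 and -0.63 with #1, 0.24, 0.36, 0.36 and 0.43 with #3 and 0.43, 0.36, 0.37 and 0.56 with siNEG. The #1 arrays were the lowest values measured in any of the genes, while the #3 arrays overlapped siNEG. It was -1.21 ± 0.065 (adjusted p = 1.07e-08) with #1, a 2.31-fold lower value, -0.081 ± 0.065 (adjusted p = 0.666) with #3 and -1.13 ± 0.065 (adjusted p = 1.06e-08) for #1 minus #3.

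GINS3 gave another pattern. GINS3 was at -0.14, -0.28, -0.070 and -0.11 in the #1 arrays, at -0.028, -0.082, -0.20 and -0.0036 in the #3 arrays and at 0.28, 0.20, 0.23 and 0.21 in the siNEG arrays. All 8 siCITED1 arrays were below all siNEG arrays, and #1 and #3 arrays overlapped. The difference was -0.38 ± 0.057 (adjusted p = 0.000228) with #1, -0.31 ± 0.057 (adjusted p = 0.00338) with #3 and -0.071 ± 0.057 (adjusted p = 0.551) for #1 minus #3. GINS4 was -0.39 ± 0.077 (adjusted p = 0.0026) with #1 and -0.090 ± 0.077 (adjusted p = 0.692) with #3, and GINS1 0.047 ± 0.069 (adjusted p = 0.81) and 0.0025 ± 0.069 (adjusted p = 0.996).

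CDC45 travels with the MCM ring and GINS in the active helicase. For CDC45 the #1 arrays gave -0.40, -0.38, -0.40 and -0.50, the #3 arrays 0.20, 0.069, -0.035 and 0.015 and the siNEG arrays 0.35, 0.33, 0.33 and 0.42. The groups formed 3 steps without overlap, #1 lowest and siNEG highest. It was -0.78 ± 0.054 (adjusted p = 8.41e-08) with #1, a 1.72-fold lower value, -0.30 ± 0.054 (adjusted p = 0.00326) with #3 and -0.48 ± 0.054 (adjusted p = 1.17e-05) for #1 minus #3. MCM10, which helps to start the helicase, had 2 probes. Values of MCM10 were -0.35, -0.17, -0.041 and -0.048 with #1, -0.0019, -0.061, -0.073 and 0.096 with #3 and 0.18, 0.20, 0.15 and 0.12 with siNEG. Both siRNAs lay below siNEG, and the spread within #1 was wide. It was -0.31 ± 0.065 (adjusted p = 0.00386) with #1 and -0.17 ± 0.065 (adjusted p = 0.189) with #3. The kinase CDC7 was -0.33 ± 0.11 (adjusted p = 0.0653) with #1 and -0.22 ± 0.11 (adjusted p = 0.364) with #3, and its partner DBF4 -0.091 ± 0.048 (adjusted p = 0.32) and 0.015 ± 0.048 (adjusted p = 0.947). The #1 arrays of CDC7 lay at -0.40, -0.37, 0.16 and 0.024, and without #1 replicate 3 it was lower (-0.43, adjusted p = 0.011), as it was without #1 replicate 4 or siNEG replicate 1.

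**Figure D3:**
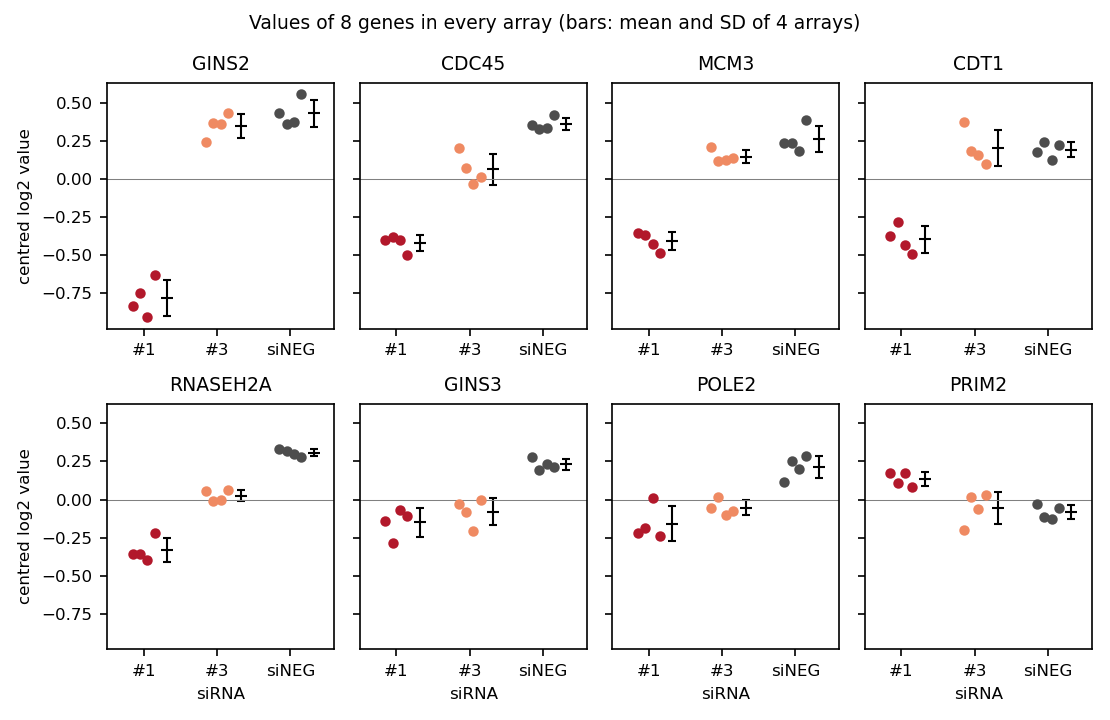
Centred log2 values of 8 genes in each array (points, 4 per siRNA), with the mean and SD of each group beside them (black). GINS2, MCM3 and CDT1 are low in #1 arrays alone, CDC45 and RNASEH2A form 3 steps, GINS3 and POLE2 are low with both siRNAs, and PRIM2 is high in #1 arrays.

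Polymerases and primase were divided. Of 9 genes 5 were lower with #1 (POLA2, PRIM1, POLD1, POLD2 and POLE2), 1 was higher (PRIM2) and 3 did not pass (POLA1, POLD3 and POLE), and with #3 only POLE2 was lower. PRIM1 and PRIM2 are the small and large subunits of primase, which lays the RNA primers. PRIM1 was at -0.41, -0.27, -0.39 and -0.25 in the #1 arrays, at 0.018, 0.099, 0.12 and 0.080 in the #3 arrays and at 0.12, 0.19, 0.45 and 0.24 in the siNEG arrays. The 3 groups did not overlap, although siNEG replicate 3 was far above the other siNEG arrays. PRIM1 was -0.58 ± 0.065 (adjusted p = 1.12e-05) with #1, -0.17 ± 0.065 (adjusted p = 0.188) with #3 and -0.41 ± 0.065 (adjusted p = 0.000334) for #1 minus #3.

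PRIM2, named because it was the only gene of the 54 called higher, went the other way. For PRIM2 the #1 arrays gave 0.17, 0.11, 0.17 and 0.084, the #3 arrays -0.20, 0.016, -0.059 and 0.027 and the siNEG arrays -0.029, -0.11, -0.13 and -0.053. All 4 #1 arrays lay above the other 8. It was 0.22 ± 0.055 (adjusted p = 0.0166) with #1, a 1.16-fold higher value, and 0.028 ± 0.055 (adjusted p = 0.901) with #3. The call was lost without #1 replicate 3 or siNEG replicate 3 (adjusted p up to 0.0522), and the difference stayed at 0.20 to 0.23 whichever array was left out.

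POLE2 is the second subunit of polymerase epsilon, which copies the leading strand. Values of POLE2 were -0.22, -0.19, 0.012 and -0.24 with #1, -0.053, 0.014, -0.10 and -0.076 with #3 and 0.11, 0.25, 0.20 and 0.28 with siNEG. Each siCITED1 array was below each siNEG array, and #1 replicate 3 lay with the #3 arrays. It was -0.37 ± 0.059 (adjusted p = 0.000453) with #1 and -0.27 ± 0.059 (adjusted p = 0.0143) with #3, and the call with #3 was lost without siNEG replicate 4 (-0.24, adjusted p = 0.0526) or #3 replicate 3 (-0.25, 0.0504). POLE, the catalytic subunit of the same enzyme, was -0.092 ± 0.073 (adjusted p = 0.569) with #1 and 0.11 ± 0.073 (adjusted p = 0.585) with #3.

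POLD1 is the catalytic subunit of polymerase delta, the enzyme of the lagging strand. POLD1 was at -0.12, -0.40, -0.24 and -0.22 in the #1 arrays, at -0.061, 0.11, 0.12 and 0.10 in the #3 arrays and at 0.20, 0.30, 0.071 and 0.14 in the siNEG arrays. The #1 arrays were below all others, and #3 replicate 1 lay apart from the other #3 arrays. It was -0.42 ± 0.066 (adjusted p = 0.000368) with #1 and -0.11 ± 0.066 (adjusted p = 0.506) with #3. Of its partners POLD2 was -0.30 ± 0.059 (adjusted p = 0.00238) with #1 and POLD3 -0.010 ± 0.045 (adjusted p = 0.948). POLA2, a subunit of polymerase alpha, was -0.49 ± 0.098 (adjusted p = 0.00307) with #1 and 0.030 ± 0.098 (adjusted p = 0.946) with #3, whereas the catalytic subunit POLA1 was -0.064 ± 0.049 (adjusted p = 0.553) and -0.11 ± 0.049 (adjusted p = 0.27).

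Of the clamp and its loaders 6 of 7 genes were lower with #1 (all but RFC2) and 1 with #3. RFC1 to RFC5 form the complex that opens the PCNA ring, and DSCC1 belongs to another loader, known from sister chromatid cohesion. For DSCC1 the #1 arrays gave -0.064, -0.088, -0.035 and -0.24, the #3 arrays -0.083, -0.042, -0.16 and 0.022 and the siNEG arrays 0.19, 0.28, 0.14 and 0.078. Both siRNAs lay below siNEG and overlapped each other. DSCC1 was -0.28 ± 0.060 (adjusted p = 0.00493) with #1 and -0.24 ± 0.060 (adjusted p = 0.0298) with #3, and the call with #3 was lost without any 1 of 6 arrays (siNEG replicates 1, 2 and 3 and #3 replicates 1, 2 and 3, with differences of -0.25 to -0.20 and adjusted p up to 0.105).

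RFC3 and RFC5 are small subunits of the PCNA loader. Values of RFC3 were -0.28, -0.18, -0.25 and -0.19 with #1, 0.056, 0.057, 0.071 and 0.099 with #3 and -0.12, 0.31, 0.28 and 0.14 with siNEG. Again #1 was lowest, and siNEG replicate 1 lay near these arrays, below all #3 arrays. It was -0.38 ± 0.073 (adjusted p = 0.00238) with #1 and -0.082 ± 0.073 (adjusted p = 0.712) with #3. RFC5 was at -0.14, -0.16, -0.16 and -0.13 in the #1 arrays, at -0.019, 0.029, 0.085 and 0.065 in the #3 arrays and at 0.020, 0.21, 0.16 and 0.054 in the siNEG arrays. Its #1 arrays formed a tight set below all others. RFC5 was -0.26 ± 0.050 (adjusted p = 0.00233) with #1 and -0.069 ± 0.050 (adjusted p = 0.621) with #3. RFC4 was -0.51 ± 0.074 (adjusted p = 0.000185) with #1 and RFC2 -0.16 ± 0.064 (adjusted p = 0.16). RFC1, the large subunit, was -0.22 ± 0.060 (adjusted p = 0.0255) with #1, a call that was lost without any 1 of 5 arrays (siNEG replicates 1, 2 and 4 and #1 replicates 3 and 4, adjusted p up to 0.0834).

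PCNA, the sliding clamp, was a borderline case. For PCNA the #1 arrays gave -0.11, -0.28, -0.14 and -0.0087, the #3 arrays 0.015, 0.077, 0.10 and 0.14 and the siNEG arrays -0.0045, 0.080, 0.019 and 0.12. The #1 arrays lay just below the siNEG arrays, with #1 replicate 4 next to siNEG replicate 1. It was -0.19 ± 0.057 (adjusted p = 0.0468) with #1 and 0.030 ± 0.057 (adjusted p = 0.895) with #3. The call was lost without any 1 of 10 arrays (all but siNEG replicate 1 and #1 replicate 4), with differences of -0.20 to -0.14 and adjusted p of up to 0.155, and with the median of its 3 probes it was -0.092 (adjusted p = 0.608).

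**Figure D4:**
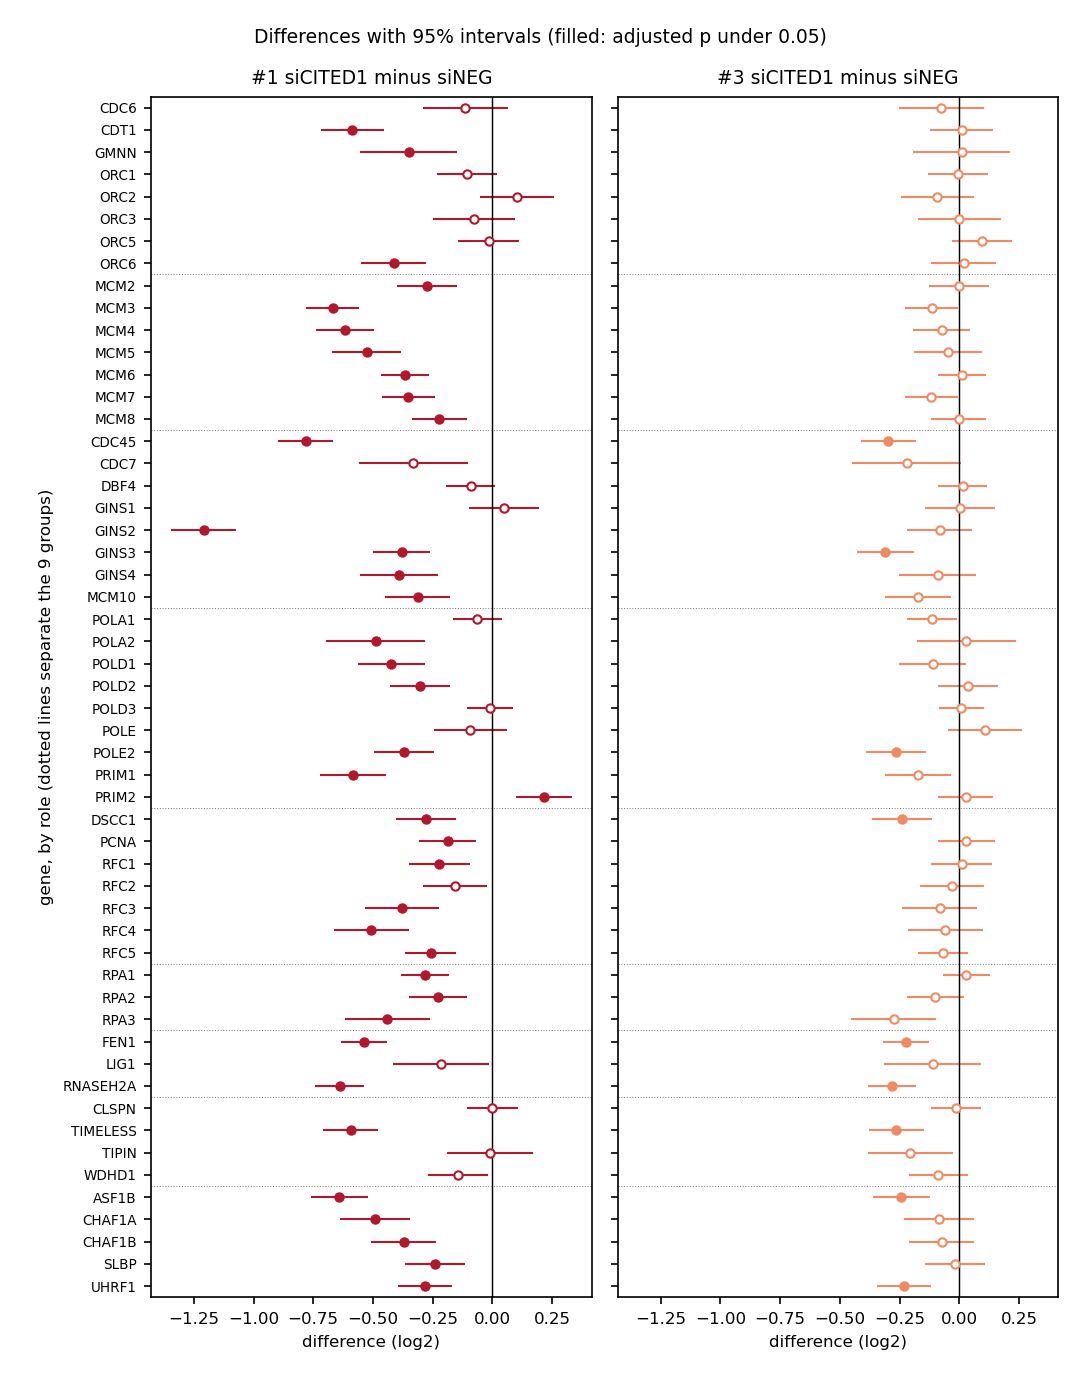
Differences (log2) of the 54 genes for #1 siCITED1 minus siNEG (left) and #3 siCITED1 minus siNEG (right), with 95% intervals and with filled points for an adjusted p under 0.05. GINS2 is farthest left with #1 at -1.21, PRIM2 is the filled point above 0, and the 9 filled points with #3 lie between -0.31 and -0.22.

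RPA, the complex of 3 subunits that coats single-stranded DNA, was lower with #1 in all 3 genes and with #3 in none by limma (1, RPA3, at an unadjusted p under 0.05). Values of RPA3 were -0.38, -0.16, -0.14 and -0.13 with #1, -0.31, 0.14, -0.087 and 0.11 with #3 and 0.23, 0.32, 0.19 and 0.21 with siNEG. All siCITED1 arrays were below all siNEG arrays, and replicate 1 was the lowest of #1 and of #3. RPA3, the smallest subunit, was -0.44 ± 0.084 (adjusted p = 0.00208) with #1 and -0.27 ± 0.084 (adjusted p = 0.0854) with #3. Without #3 replicate 2 it was lower with #3 too (-0.33, adjusted p = 0.0418).

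RPA2 is the middle subunit, known to be phosphorylated when replication is disturbed. RPA2 was at -0.15, -0.15, 0.021 and -0.19 in the #1 arrays, at 0.0011, -0.020, 0.069 and -0.015 in the #3 arrays and at 0.15, 0.19, 0.0020 and 0.093 in the siNEG arrays. Here #1 replicate 3 lay above the other #1 arrays and above siNEG replicate 3, so the groups overlapped. It was -0.23 ± 0.057 (adjusted p = 0.0144) with #1 (adjusted p = 0.0525 without #1 replicate 4, -0.20) and -0.10 ± 0.057 (adjusted p = 0.467) with #3. RPA1 is the large subunit that binds DNA. For RPA1 the #1 arrays gave -0.22, -0.24, -0.21 and -0.12, the #3 arrays 0.13, 0.097, 0.052 and 0.18 and the siNEG arrays 0.038, 0.082, 0.11 and 0.10. All #1 arrays were below the rest, and #3 overlapped siNEG. RPA1 was -0.28 ± 0.047 (adjusted p = 0.000689) with #1 and 0.030 ± 0.047 (adjusted p = 0.865) with #3.

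Of the 3 genes of lagging strand processing FEN1 and RNASEH2A were lower with both siRNAs, and the ligase LIG1 was -0.22 ± 0.096 (adjusted p = 0.208) with #1 and -0.11 ± 0.096 (adjusted p = 0.698) with #3. RNASEH2A is the catalytic subunit of the ribonuclease that removes RNA from DNA. Values of RNASEH2A were -0.36, -0.36, -0.40 and -0.22 with #1, 0.054, -0.012, -0.0029 and 0.063 with #3 and 0.33, 0.32, 0.30 and 0.28 with siNEG. The 3 groups did not overlap, with #3 near the middle. It was -0.64 ± 0.048 (adjusted p = 1.99e-07) with #1, -0.28 ± 0.048 (adjusted p = 0.00196) with #3 and -0.36 ± 0.048 (adjusted p = 7.6e-05) for #1 minus #3. FEN1 cuts the flaps of Okazaki fragments. FEN1 was at -0.28, -0.32, -0.28 and -0.27 in the #1 arrays, at 0.11, -0.033, 0.029 and 0.013 in the #3 arrays and at 0.25, 0.28, 0.27 and 0.21 in the siNEG arrays. The same order held, and the #1 arrays lay close together. FEN1 was -0.54 ± 0.045 (adjusted p = 6.38e-07) with #1, -0.22 ± 0.045 (adjusted p = 0.00731) with #3 and -0.31 ± 0.045 (adjusted p = 0.00015) for #1 minus #3. With #3 its 2 probes were at -0.23 (adjusted p = 0.0487 over all probes) and -0.21 (0.106), and the call was lost when the most variable probe stood for each gene (-0.21, adjusted p = 0.0849).

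Of 4 fork protection genes only TIMELESS was lower, and it was lower with both siRNAs. For TIMELESS the #1 arrays gave -0.34, -0.37, -0.21 and -0.32, the #3 arrays -0.0044, 0.078, 0.12 and -0.099 and the siNEG arrays 0.24, 0.29, 0.29 and 0.32. The groups lay in 3 steps without overlap. It was -0.59 ± 0.055 (adjusted p = 1.56e-06) with #1, -0.26 ± 0.055 (adjusted p = 0.0087) with #3 and -0.33 ± 0.055 (adjusted p = 0.000478) for #1 minus #3. TIPIN, which forms a complex with TIMELESS, was -0.011 ± 0.085 (adjusted p = 0.973) with #1 and -0.20 ± 0.085 (adjusted p = 0.253) with #3. Its siNEG arrays lay at -0.28, 0.17, 0.23 and 0.17, and without siNEG replicate 1 TIPIN was lower with #3 (-0.32, adjusted p = 0.000978). CLSPN, the checkpoint mediator claspin, was 0.000084 ± 0.050 (adjusted p = 1) with #1 and -0.014 ± 0.050 (adjusted p = 0.951) with #3. WDHD1, which ties polymerase alpha to the helicase, was -0.14 ± 0.059 (adjusted p = 0.16) with #1 and -0.087 ± 0.059 (adjusted p = 0.582) with #3, and without siNEG replicate 1 it was lower with #1 (-0.21, adjusted p = 0.0128).

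Chromatin assembly was lower with #1 in 5 of 5 genes and with #3 in 2. ASF1B hands histones to the assembly factor CAF-1. Values of ASF1B were -0.36, -0.32, -0.42 and -0.28 with #1, 0.10, -0.060, 0.054 and 0.11 with #3 and 0.42, 0.27, 0.22 and 0.27 with siNEG. The groups did not overlap, and siNEG replicate 1 was the highest array. It was -0.64 ± 0.057 (adjusted p = 1.01e-06) with #1, -0.24 ± 0.057 (adjusted p = 0.0201) with #3 and -0.40 ± 0.057 (adjusted p = 0.000124) for #1 minus #3. The call with #3 was lost without siNEG replicate 1 (-0.20, adjusted p = 0.052) or #3 replicate 2 (-0.20, 0.0697).

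CHAF1A is the large subunit of CAF-1. CHAF1A was at -0.31, -0.39, -0.25 and -0.25 in the #1 arrays, at 0.16, 0.20, -0.13 and 0.20 in the #3 arrays and at 0.23, 0.19, 0.26 and 0.10 in the siNEG arrays. The #1 arrays were below all others, and #3 replicate 3 lay apart from the other #3 arrays. It was -0.49 ± 0.069 (adjusted p = 0.000126) with #1 and -0.086 ± 0.069 (adjusted p = 0.673) with #3, and its partner CHAF1B was -0.37 ± 0.064 (adjusted p = 0.000933) and -0.074 ± 0.064 (adjusted p = 0.699). SLBP, which binds the stem-loop of histone mRNAs, was -0.24 ± 0.059 (adjusted p = 0.0128) with #1 and -0.018 ± 0.059 (adjusted p = 0.947) with #3.

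UHRF1 brings the DNA methyltransferase to newly copied DNA. For UHRF1 the #1 arrays gave -0.072, -0.0090, -0.23 and -0.14, the #3 arrays -0.15, -0.0071, -0.034 and -0.053 and the siNEG arrays 0.15, 0.17, 0.24 and 0.13. Both siRNAs lay below siNEG and overlapped each other. It was -0.28 ± 0.054 (adjusted p = 0.0021) with #1 and -0.23 ± 0.054 (adjusted p = 0.02) with #3, a call lost without siNEG replicate 3 (-0.21, adjusted p = 0.0686) or #3 replicate 1 (-0.20, 0.0706). Its 2 probes had the widest gap of the 22 genes with several probes: with #1 they were at -0.62 ± 0.066 (limma adjusted p = 4.23e-07 over all probes) and 0.060 ± 0.068 (adjusted p = 0.808).

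Such gaps between probes were common. Of the 22 genes with several probes, all probes passed with #1 in 7, some in 10 and none in 5. RFC5 had a probe at -0.52 and a probe at 0.0053 with #1, and PCNA had probes at -0.54, -0.058 and 0.032. The mean over probes, on which the calls rest, is smaller than the difference of the probe that moved most, and which transcripts each probe reads was not tested.

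**Figure D5:**
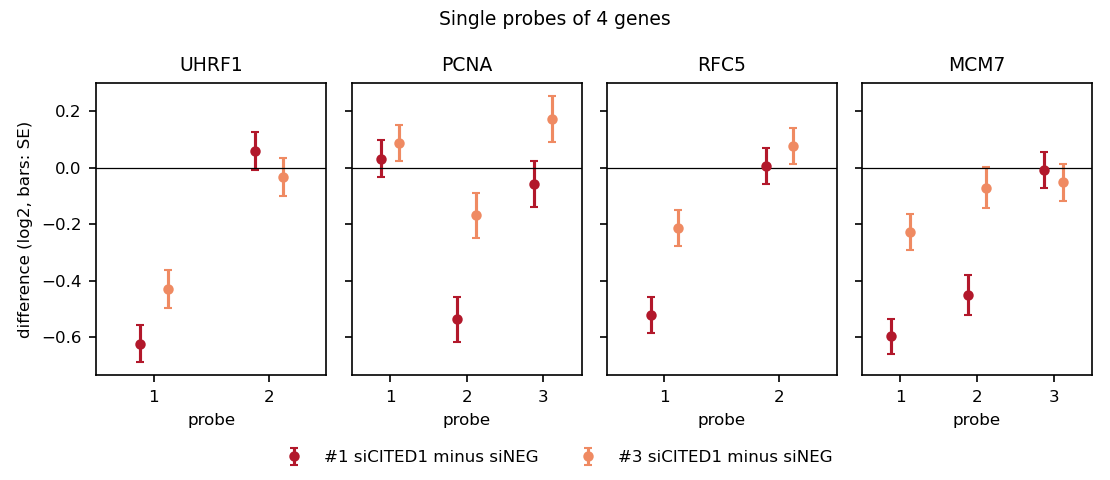
Differences (log2, bars are SE) of single probes of UHRF1, PCNA, RFC5 and MCM7 for #1 siCITED1 minus siNEG and #3 siCITED1 minus siNEG. In each gene a probe near 0 stands beside a probe at -0.52 or lower with #1.

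A further 40 replication genes with a probe (of 42 listed, CHTF8 and CTC1 not analysed here) were read beside the 54. With #1 9 were lower (22.5%, against 5.02% of all genes) and 1 higher (2.5%, against 4.82%). With #3 3 were lower (7.5%, against 1.91%) and none higher by limma (1 at an unadjusted p under 0.05), against 2.44%. For #1 minus #3 7 were lower (17.5%, against 6.28%) and 2 higher (5%, against 6.09%), so that the higher calls were no more frequent than among all genes. The median was -0.06 log2 with #1 and -0.023 with #3. TOP2A, the topoisomerase of dividing cells, was -0.58 ± 0.12 (adjusted p = 0.00416) with #1 and -0.39 ± 0.12 (adjusted p = 0.0902) with #3. Its siNEG arrays lay at -0.17, 0.62, 0.44 and 0.40, and siNEG replicate 1 lay among the #1 arrays (-0.36 to -0.086). FAM111A, a protease known to act with PCNA, was -0.48 ± 0.059 (adjusted p = 3.2e-05) and -0.28 ± 0.059 (adjusted p = 0.0104).

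TOPBP1, which helps to activate the helicase, was -0.43 ± 0.059 (adjusted p = 0.000101) with #1 and -0.023 ± 0.059 (adjusted p = 0.928) with #3. PCLAF, a PCNA-binding factor, was -0.43 ± 0.053 (adjusted p = 3.1e-05) and -0.13 ± 0.053 (adjusted p = 0.257). RNASEH2B, a partner of RNASEH2A, was lower with #3 alone. Values of RNASEH2B were 0.20, 0.10, 0.23 and 0.17 with #1, -0.42, -0.45, -0.42 and -0.069 with #3 and 0.16, 0.12, 0.23 and 0.14 with siNEG. The #3 arrays were low and the #1 arrays overlapped siNEG. It was 0.011 ± 0.071 (adjusted p = 0.967) with #1, -0.50 ± 0.071 (adjusted p = 0.00037) with #3 and 0.51 ± 0.071 (adjusted p = 9.99e-05) for #1 minus #3. RBBP4, a histone chaperone in CAF-1 and other complexes, was 0.11 ± 0.051 (adjusted p = 0.242) with #1 and -0.20 ± 0.051 (adjusted p = 0.0368) with #3 (a call lost without any 1 of 6 arrays, adjusted p up to 0.128). ASF1A, the paralog of ASF1B, was 0.20 ± 0.057 (adjusted p = 0.0356) with #1, where ASF1B was lower, and that call was lost without any 1 of 5 arrays (adjusted p up to 0.115).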

How the data were processed

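RNA of HT144 cells was hybridised to 12 Illumina HT-12 arrays, 4 wells each of #1 siCITED1, #3 siCITED1 and siNEG at 48 h, with groups taken from the labels. The deposited table holds log2 intensities that the authors had already scaled between arrays by quantiles, without control probes, and set relative to gene and array means (BASE and MeV). Differences in overall brightness between arrays, and levels of genes, are thereby removed. For background correction and detection calls nothing was stated. The deposited log2 values were checked: no probe mean lay farther than 1.33e-07 and no array mean farther than 1.43e-05 from 0. That the scale is log2 comes from the methods, and folds assume it. Arrays give no read depth.

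Of 47315 probes 30105 had 1 gene symbol in the platform annotation (30066 of them matched by Entrez ID to a current symbol), 8 had several and 17202 had no entry. Probes were averaged to 20045 genes. limma 3.58.1 (lmFit and eBayes; R 4.3.3) gave the differences, with 8 siCITED1 arrays against 4 siNEG arrays in the first model and with 3 groups in the second, and adjusted by Benjamini-Hochberg over all genes, with a threshold of 0.05. The limma test stands in place of the authors' SAM. An exact permutation test of a single value cannot go below 0.0286 with 4 against 4 arrays. The fit was tested on simulated data with known changes. Array values were given for the up to 3 genes per group of smallest p for both siRNAs among those past the threshold in any comparison, for the 4 genes with the widest gap between probes, for CITED1, and for the 6 genes of smallest p for #1 minus #3. Values of other genes were chosen after they were seen. The 54 genes and all lists were chosen with earlier results of these data known. Motifs were searched in RefSeq windows (GRCh38.p14). Probe summaries, scalings, priors, blocks and single arrays were varied. No sequences of the siRNAs were used here.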

Additional observations from a re-analysis of the deposited data

Results flagged for a closer look

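Each of the 84 groups of 4 arrays (28 named genes in 3 groups) was searched for an array apart from the other 3, and 6 held one, where chance flags about 1 in 20 groups. GMNN was at -0.52 in #1 replicate 1, with the nearest #1 array at -0.16. MCM7 was at -0.30 in #1 replicate 1, against -0.17, and RPA3 at -0.38 in the same array, against -0.16. RPA2 was at 0.021 in #1 replicate 3, against -0.15 in the nearest. POLD1 was at -0.061 in #3 replicate 1, against 0.10, and CHAF1A at -0.13 in #3 replicate 3, against 0.16.

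The effects of the siRNAs against the shared siNEG arrays differed, by the test of #1 minus #3, in 31 of the 54 genes. Of the 54 genes 30 were lower in #1 (55.6%, against 6.28% of all genes) and 1 was higher (1.85%, against 6.09%). In licensing the difference was -0.60 log2 for CDT1, -0.43 for ORC6 and -0.36 for GMNN. In the MCM family it was -0.55 for MCM3, -0.54 for MCM4, -0.48 for MCM5, -0.38 for MCM6, -0.27 for MCM2, -0.24 for MCM7 and -0.22 for MCM8. In helicase activation it was -1.13 for GINS2, -0.48 for CDC45 and -0.30 for GINS4. Among polymerases and primase it was -0.52 for POLA2, -0.41 for PRIM1, -0.34 for POLD2, -0.31 for POLD1 and 0.19 for PRIM2. In the clamp and its loaders it was -0.45 for RFC4, -0.29 for RFC3, -0.23 for RFC1, -0.22 for PCNA and -0.19 for RFC5. It was -0.31 for RPA1, -0.36 for RNASEH2A, -0.31 for FEN1 and -0.33 for TIMELESS. In chromatin assembly it was -0.41 for CHAF1A, -0.40 for ASF1B, -0.30 for CHAF1B and -0.22 for SLBP. CITED1 RNA did not pass in this comparison (0.11, limma adjusted p = 0.275). The arrays do not measure protein, and the paper, with a Western blot, describes #3 as the less successful siRNA against CITED1. For 7 of the 31 genes (GMNN, GINS4, PRIM2, PCNA, RFC1, RFC5 and SLBP) the call was lost without at least 1 array, and ORC2, POLE, RPA3 and TIPIN, which did not pass, each passed without 1 array.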

How the results depend on the processing

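With both siRNAs as 1 group, 10 genes passed as reported, 5 with a replicate block, 27 when the differences of #1 and #3 were averaged, and 3 to 11 when single arrays were left out. Of these counts only the 10 was set against a share over all genes. Under the block CDC45, RNASEH2A, FEN1, TIMELESS and ASF1B were lost, and RPA3 was gained with #3 (adjusted p = 0.0342). Averaging takes the difference between the siRNAs out of the spread, and leaving out arrays lowers their number. Otherwise the cause was not tested. Leaving out single arrays gave 35 to 39 genes with #1 (38 as reported), 7 to 9 with #3 (9) and 27 to 33 for #1 minus #3 (31). The median or most variable probe, single probes, recentred arrays, quantile normalization, robust priors, unnamed probes and fits of 2 groups kept these counts within 1.5 times. Whether the shared numbers pair the wells is not stated. Same-numbered arrays correlated at -0.0742 to 0.132 after subtraction of group means, with the own number best in 4 of 12 pairs. Such correlations cannot show how the wells were handled. The block gave 38 genes with #1, 10 with #3 and 30 for #1 minus #3.

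The sign changed in 9 of the values named, none past the threshold in either fit. With both siRNAs PCNA was 0.0065 by the median of probes. With #3 RFC3 was 0.073 and PCNA -0.17 by the most variable probe, and RPA1 was -0.0073 by the median. Without single arrays, with #3 CDT1 ranged from -0.047 to 0.044, ORC6 from -0.012 to 0.053, GMNN from -0.058 to 0.085 and MCM6 from -0.012 to 0.032, and DSCC1 ranged from -0.073 to 0.0031 for #1 minus #3.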

Other observations

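Probes of further genes differed with #1. The 2 probes of POLD2 were at -0.54 log2 against siNEG (limma adjusted p = 3.98e-05 over all probes) and -0.068 (0.828), those of MCM10 at -0.53 (2.12e-05) and -0.097 (0.654), and those of RFC2, which did not pass as a mean, at -0.34 (0.0305) and 0.025 (0.946). Of the 3 probes of RFC3, 1 was lower with #3 (-0.31, adjusted p = 0.00916), while the others were at -0.0074 and 0.073.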
